A study of Mus musculus with 12 samples.

Results

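The genes described here encode enzymes of glycolysis, from hexokinase to lactate dehydrogenase: Hk2, Gpi1, Pfkl, Pfkp, Aldoa, Tpi1, Gapdh, Pgam1, Eno1 and Ldha. They were taken by name as 10 of the 23336 gene symbols in the count table, by a rule that uses no measured value, although earlier results of these data were known when it was set. All 10 were listed. Of these, 9 passed the filter on low counts, and Eno1 did not.

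The libraries came from mouse embryonic stem cells (ESCs) of 3 lines: a female line labelled RlimKO, a female WT line (Pgk12.1) and a male WT line (E14). Each line was examined differentiated and undifferentiated, with 2 libraries in each of the 6 groups. Sex and the RlimKO label change only with the line, so their effects cannot be told apart from other differences between lines. Differentiated cells spent 3 days as embryoid bodies without LIF, the cytokine that holds ESCs in self-renewal, and then 6 days in culture at 7.5% oxygen. Undifferentiated cells were grown with LIF. The oxygen level is given for the differentiated cultures only, so effects of differentiation, LIF withdrawal and oxygen cannot be told apart. The labels give C57BL/6 as the strain of every sample and do not say whether replicates were separate cultures. The spread between the 2 libraries of a group may therefore be technical. In the main model this spread was estimated over all 6 groups together, so groups outside a comparison also enter its p-value.

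Libraries held 2011919 to 5401940 gene counts, and 836410 to 5057003 outside Rn45s, a ribosomal RNA gene, and Lars2. Rn45s alone took 6.36% in differentiated WT male replicate 2 and 67.7% in differentiated RlimKO-labelled replicate 1, the 2 libraries of extreme Rn45s share. The other libraries of these groups had 22.5% and 30.8%. The 2 differentiated WT male libraries stood apart from each other, with a chi-square of 24.8 per degree of freedom over genes against 1.85 to 2.32 in the other pairs. Some of the male values, but not all, are also given without each of them. Through the shared estimate of the spread, these 2 libraries also enter the p-values of comparisons between the female lines. Rlim, the gene named in the RlimKO label, had 290.1 and 299 CPM (counts scaled to 1000000 per TMM-adjusted library) in differentiated RlimKO-labelled libraries, against 258 and 266 CPM in differentiated WT females. Undifferentiated RlimKO-labelled libraries had 159.96 and 150.04 CPM of it, and undifferentiated WT females had 267 and 282 CPM. The gene was thus not at 0 in either state, and which part of it the allele removes is not given in the sources used here, so the line is called RlimKO-labelled. Markers of pluripotent stem cells fell on differentiation in all 3 lines (8 of 8 in each), and summed to 85.1 to 97.8 CPM in differentiated RlimKO-labelled cells, 205 to 213 CPM in WT females and 48.9 to 126 CPM in males, against 1795 to 2056 CPM over the undifferentiated libraries. Fibroblast or feeder markers summed to 11449.6 to 11730.1 CPM, 7211 to 8365 CPM and 3079 to 9479 CPM in the same differentiated groups, against 1.75 to 61.7 CPM in undifferentiated cells. In these bulk libraries, fewer cells of a type and less RNA per cell cannot be told apart.

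Glycolysis splits glucose into pyruvate and yields ATP without oxygen, and lactate dehydrogenase then turns pyruvate into lactate, which restores the NAD+ that glyceraldehyde phosphate oxidation needs. ESCs are known for a high rate of glycolysis. Low oxygen raises the transcription of many of these genes in mammalian cells through hypoxia-inducible factors, which bind the core sequence ACGTG or GCGTG. MYC family proteins, which also act on glycolytic genes, bind the palindrome CACGTG.

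Upstream sequences of 5 genes are printed because these genes carry the contrast described below: Hk2, Pfkl, Tpi1 and Ldha rose on differentiation in WT females, and Pfkp fell in all 3 lines. Each sequence is the 250 bases before the most upstream start that RefSeq lists on GRCm38.p6, written from 5′ to 3′ on the gene's own strand. The windows are chr6:82774455-82774704 (minus strand) for Hk2, chr10:78009808-78010057 (minus strand) for Pfkl, chr6:124814159-124814408 (minus strand) for Tpi1, chr7:46845554-46845803 (plus strand) for Ldha and chr13:6648772-6649021 (minus strand) for Pfkp. Capitals mark every ACGTG and every GCGTG on either strand. The palindrome CACGTG holds ACGTG on both strands.
Hk2: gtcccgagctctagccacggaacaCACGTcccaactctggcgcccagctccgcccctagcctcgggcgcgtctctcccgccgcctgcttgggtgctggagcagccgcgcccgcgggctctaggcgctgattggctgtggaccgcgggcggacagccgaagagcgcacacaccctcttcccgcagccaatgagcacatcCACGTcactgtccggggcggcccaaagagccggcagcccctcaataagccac
Pfkl: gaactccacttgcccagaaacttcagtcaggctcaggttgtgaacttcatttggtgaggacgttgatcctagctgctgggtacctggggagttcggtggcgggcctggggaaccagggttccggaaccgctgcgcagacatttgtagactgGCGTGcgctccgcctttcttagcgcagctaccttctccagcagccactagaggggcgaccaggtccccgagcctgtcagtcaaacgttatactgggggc
Tpi1: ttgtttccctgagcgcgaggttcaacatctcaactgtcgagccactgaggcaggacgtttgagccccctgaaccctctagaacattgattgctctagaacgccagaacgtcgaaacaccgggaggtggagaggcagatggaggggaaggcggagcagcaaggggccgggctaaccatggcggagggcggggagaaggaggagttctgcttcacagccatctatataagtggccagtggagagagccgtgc
Ldha: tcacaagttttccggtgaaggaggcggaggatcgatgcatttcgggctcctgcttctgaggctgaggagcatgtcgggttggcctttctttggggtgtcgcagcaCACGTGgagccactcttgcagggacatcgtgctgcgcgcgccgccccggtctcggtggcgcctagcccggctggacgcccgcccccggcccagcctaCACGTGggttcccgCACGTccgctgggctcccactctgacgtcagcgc
Pfkp: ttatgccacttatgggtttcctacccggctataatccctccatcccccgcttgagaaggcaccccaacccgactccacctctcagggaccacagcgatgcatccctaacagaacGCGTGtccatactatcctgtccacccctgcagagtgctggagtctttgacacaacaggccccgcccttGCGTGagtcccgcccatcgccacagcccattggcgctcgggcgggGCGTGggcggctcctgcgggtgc

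The Ldha window held 5 matches to ACGTG, of which 4 came from 2 CACGTG palindromes. The Hk2 window held 2 matches to ACGTG. The Pfkl window held 1 GCGTG and the Pfkp window 3, while the Tpi1 window held neither. Over the 10 enzyme genes, which all matched a RefSeq promoter, 7 windows held ACGTG or GCGTG, and 38.6% of 27025 RefSeq promoter windows of the same length did. ACGTG alone was in 3 of the 10 windows and 16.5% of all, GCGTG in 5 and 28.3%, and CACGTG in 1 and 6.04%. A match is a description of the letters in these windows only.

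Levels per length, in CPM per kilobase of the longest coding transcript, ran over a wide range within the pathway. Aldoa, which splits fructose bisphosphate into triose phosphates, had the highest median over the 12 libraries at 502 CPM per kilobase, and its range of 337 to 701 did not overlap that of any other of the 10 genes. Ldha followed with a median of 222 (153 to 293) and Tpi1, the triose phosphate isomerase, with 141 (123 to 248.5), and the ranges of these neighbours overlapped. Pgam1, a phosphoglycerate mutase, stood at 57.5 CPM per kilobase and Gpi1, the glucose phosphate isomerase, at 53.3. Gapdh, the glyceraldehyde phosphate dehydrogenase, stood at 39.0, Pfkl at 31.6, Pfkp at 22.8 and Hk2 at 18.1, each range overlapping its neighbour's.

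Several of these genes have near-identical processed copies elsewhere in the genome, and how reads with more than 1 match were counted is not given in the sources used here. Every window of 50 bases of the longest coding transcript was compared with the annotated transcripts of other genes, allowing 2 mismatches. For Gapdh 85.1% of windows were found in another gene, with matches to 387 genes in all. The share was 57.8% for Aldoa, 53.3% for Gpi1, 49.3% for Ldha, 41.8% for Pgam1 and 34.0% for Tpi1. Pfkp shared 17.1%, all with the overlapping gene Pitrm1, and reads of the 2 genes cannot be told apart there without strand. Pfkl shared 0.95% and Hk2 0.13%, so these 2 levels are the least exposed to such sharing, whereas the Gapdh level is uncertain.

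**Figure D1:**
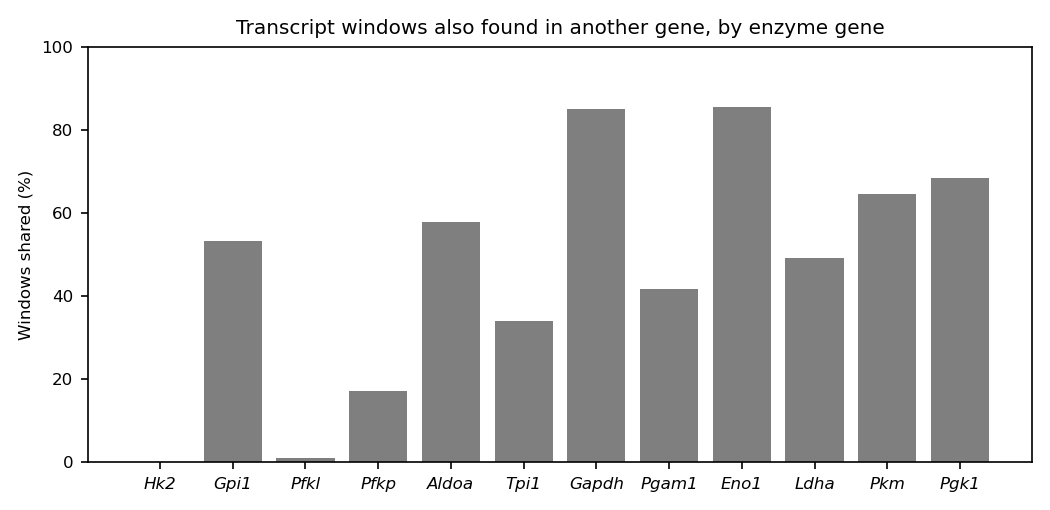
Bars give, for each enzyme gene, the percentage of 50-base windows of its longest coding transcript that were also found, with up to 2 mismatches, in an annotated transcript of another gene (y axis from 0 to 100%). Gapdh and Eno1 exceed 85%, while Hk2 and Pfkl stay below 1%.

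Eno1, the enolase of most tissues, had 2 counts in all. They fell in undifferentiated RlimKO-labelled replicate 2, and the other 11 libraries were at 0. A count of 0 allows up to 3 counts, or 0.322 to 1.75 CPM depending on the library, for counting error only. In the same transcript comparison 85.5% of Eno1 windows were shared with some other gene, and 84.2% of all Eno1 windows with Eno1b, which the count table lists as Gm5506 and which had 24.3 to 98.8 CPM. The enolase level could therefore not be read from Eno1, and no fold is given for it.

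Differentiation of the WT female line was accompanied by rises of Hk2, Pfkl, Tpi1 and Ldha and by falls of Pfkp and Gapdh, that is 4 of 9 tested members higher and 2 lower at an adjusted p below 0.05. Over all 12814 tested genes 26.5% were called higher and 22.2% lower. The median log2 fold change was 0.24 over the 9 members and 0.09 over all tested genes.

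Hk2 (chr6:82725025-82774454), the hexokinase that traps glucose as its phosphate, had 155 and 156 CPM in differentiated and 107 and 99.1 CPM in undifferentiated WT females. Both differentiated libraries were higher, with a log2 fold change of 0.59 ± 0.16 (SE; edgeR adjusted p = 0.00729). Leaving out the second undifferentiated or the second differentiated library of this line ended the call (adjusted p = 0.102 and 0.0674).

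Pfkl (chr10:77986947-78010083), the liver-type phosphofructokinase of the committed step, had 186 and 151 CPM in differentiated WT females against 71.9 and 85.3 CPM in undifferentiated ones. It rose by 1.10 ± 0.23 on the log2 scale, or 2.14-fold (adjusted p = 0.00111). Pfkp (chr13:6579768-6648777), the platelet-type enzyme of the same step, moved the other way, with 73.6 and 81.9 CPM in differentiated against 107 and 132 CPM in undifferentiated libraries. Its fall was 0.62 ± 0.16 (log2 fold change -0.62, adjusted p = 0.00541), not called without differentiated WT female replicate 1 (0.0696).

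Tpi1 (chr6:124810586-124814296) had 394 and 399 CPM in differentiated and 197 and 198 CPM in undifferentiated WT females. The pairs were far apart compared with the spread inside them, and the log2 fold change was 1.005 ± 0.16 (adjusted p = 0.000116). Gapdh (chr6:125161715-125166467) had 63.1 and 48.5 CPM against 88.2 and 77.7 CPM, a log2 fold change of -0.57 ± 0.19 (adjusted p = 0.0229). That call did not survive leaving out undifferentiated replicate 1 (0.106) or differentiated replicate 2 (0.161), and most of the transcript is shared with other genes.

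Ldha (chr7:46841475-46855627), the lactate dehydrogenase subunit that favours lactate formation, had 532 and 512 CPM in differentiated against 277 and 308 CPM in undifferentiated WT females. It rose by 0.84 ± 0.16 on the log2 scale (adjusted p = 0.00055). Pfkl, Tpi1 and Ldha stayed called in each of 12 fits with 1 library removed. Gpi1, Aldoa and Pgam1 were not called, with log2 fold changes of 0.23 ± 0.24, -0.06 ± 0.17 and 0.24 ± 0.16.

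The RlimKO-labelled line gave another picture: 4 of 9 members fell (Pfkp, Aldoa, Gapdh and Pgam1) and 0 rose, with 4 at an unadjusted p below 0.05. DESeq2 also called 0 higher. Of all tested genes 26.4% were called higher and 21.6% lower. The members' median log2 fold change was -0.41, against 0.096 over all tested genes.

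Pfkp had 56.3 and 57.8 CPM in differentiated against 121 and 138 CPM in undifferentiated RlimKO-labelled cells, a log2 fold change of -1.18 ± 0.17 (adjusted p = 4.96e-05). Aldoa (chr7:126795234-126800751) had 522 and 556 CPM in differentiated cells against 841 and 875 CPM in undifferentiated ones, a log2 fold change of -0.67 ± 0.17 (adjusted p = 0.00476). Gapdh had 36.1 and 41.2 CPM against 97.5 and 75.4 CPM (-1.14 ± 0.20, adjusted p = 0.000287). The calls of these genes held in all 12 fits without a library.

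Pgam1 (chr19:41911923-41918660) had 88.2 and 84.4 CPM in differentiated RlimKO-labelled cells, against 117 CPM in both undifferentiated libraries. Its log2 fold change of -0.44 ± 0.16 (adjusted p = 0.0305) was not called without differentiated RlimKO-labelled replicate 1 (0.0891), replicate 2 (0.162) or differentiated WT female replicate 1 (0.0549). Members that rose in WT females were not called here. Hk2 had 87.1 and 87.3 CPM in differentiated against 112 and 101 CPM in undifferentiated RlimKO-labelled cells (-0.28 ± 0.17), and Ldha had 315 and 422 CPM against 384 and 420.3 CPM (-0.12 ± 0.16). Pfkl had 113 and 146 CPM against 112 and 78.0 CPM (0.47 ± 0.23), and Tpi1 had 269 and 263 CPM against 217 and 209 CPM (0.32 ± 0.16). More members were called without differentiated WT male replicate 1 or 2, with Pfkl higher in each fit and Tpi1 higher without replicate 2. The share of all genes called in those fits is not given here.

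In the WT male line 6 of 9 members fell on differentiation (Pfkl, Pfkp, Aldoa, Gapdh, Pgam1 and Ldha) and 0 rose, with 7 at an unadjusted p below 0.05. Tpi1 was called higher (1 member) with DESeq2, with RLE size factors, without Rn45s and Lars2, with a stricter filter and without the 2 libraries of extreme Rn45s share. Over all tested genes 28.7% were called higher and 25.4% lower. Their median was 0.05, against -0.50 over the members.

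Pfkl had 123 and 82.5 CPM in differentiated against 176 and 150.1 CPM in undifferentiated males, a log2 fold change of -0.68 ± 0.22 (adjusted p = 0.0165). This is the reverse of its direction in WT females, and the call was lost when undifferentiated replicate 1 (0.115) or differentiated replicate 2 (0.0677) of the male line was left out. Pfkp had 73.9 and 61.3 CPM against 156 and 164 CPM (-1.25 ± 0.16, adjusted p = 1.28e-05). Its fall held without any single library and measured -1.32 and -1.06 without differentiated male replicates 1 and 2.

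Aldoa had 584 and 854 CPM in differentiated against 1086 and 949.7 CPM in undifferentiated males (-0.50 ± 0.17, adjusted p = 0.0209). The call was lost without undifferentiated male replicate 1 (0.144) or differentiated male replicate 1 (log2 fold change -0.19, adjusted p = 0.249). Gapdh had 31.2 and 32.5 CPM against 60.2 and 50.5 CPM (-0.79 ± 0.19, adjusted p = 0.00297), and Pgam1 had 83.8 and 71.1 CPM against 127 CPM in both undifferentiated males (-0.72 ± 0.15, adjusted p = 0.00101). These 2 calls held in all 12 fits. Ldha had 307 and 355 CPM in differentiated against 468 CPM in both undifferentiated libraries (-0.50 ± 0.16, adjusted p = 0.0139), and it was not called without undifferentiated male replicate 1 (0.0625) or 2 (0.0666).

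The differentiated male libraries differed most in Gpi1, with 148 and 263 CPM against 316 and 254 CPM in undifferentiated males, so the groups overlapped. Hk2 had 67.5 and 91.4 CPM against 102 and 97.0 CPM, and Tpi1 had 329.9 and 234 CPM against 219.5 and 216 CPM, and none of the 3 was called. The members called changed without differentiated male replicate 1 or 2, and the share of all genes called in those fits is not given here. Without replicate 2, Hk2 (log2 fold change -0.50) and Gpi1 (-0.89) were called lower and Tpi1 (0.66) higher, and Pfkl was no longer called.

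**Figure D2:**
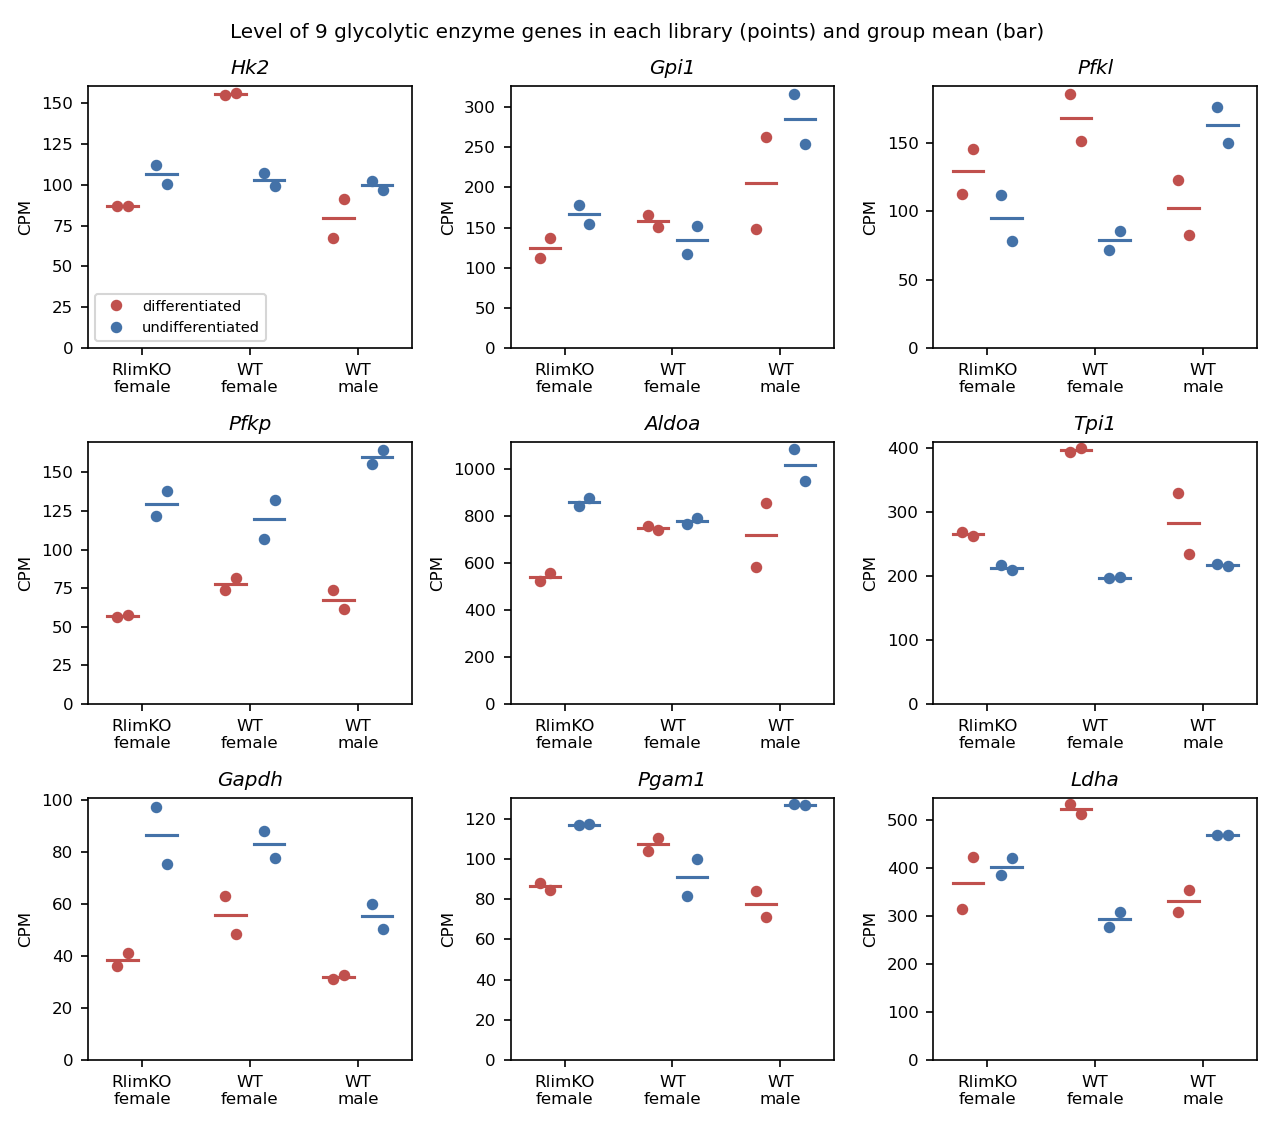
Points give the level of 9 enzyme genes in each library (CPM of TMM-scaled library, linear axes from 0) and bars the mean of 2 libraries, with differentiated cells (red) left of undifferentiated cells (blue) in each of 3 lines. Pfkp and Gapdh are lower after differentiation in every line, while Hk2 and Ldha are higher after differentiation in the WT female points.

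Across the 3 lines Pfkp and Gapdh were called lower in each, and 0 members were called higher in each. The share of all tested genes called in the same direction in all 3 lines was not computed, so these counts have no background. The comparisons rest on separate libraries but were fitted in 1 model with a shared estimate of the spread. Pluripotent cell markers and fibroblast markers moved with every one of these changes, with the sums given above, and their part in the result was not tested.

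**Figure D3:**
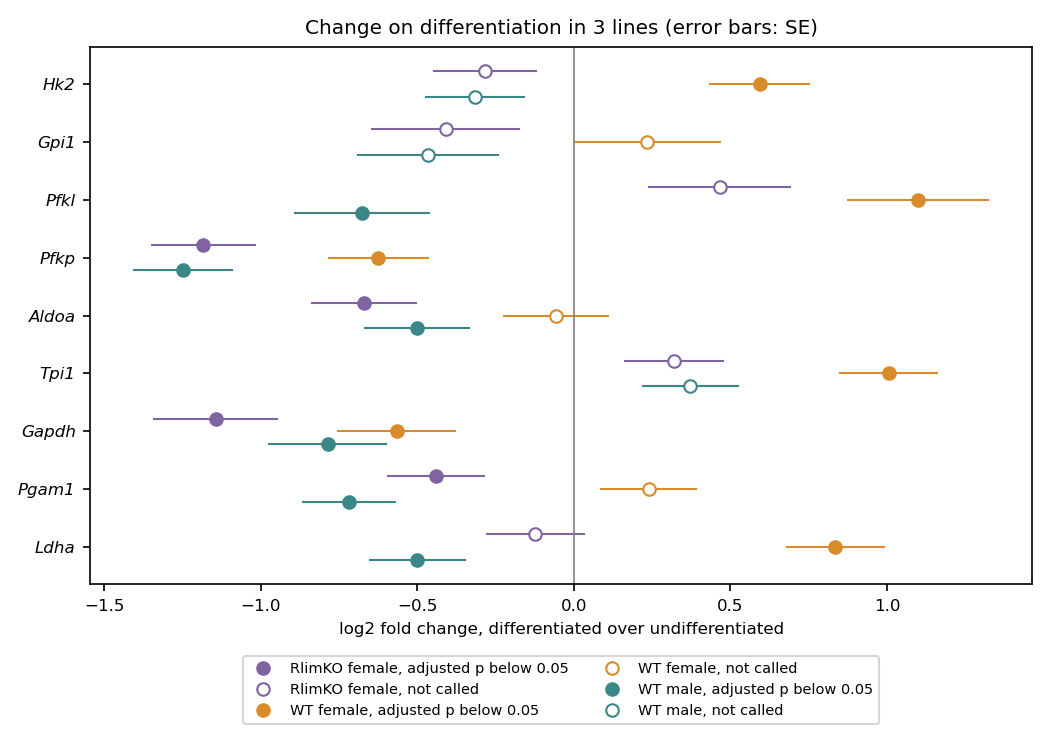
Each point is the log2 fold change on differentiation of 1 enzyme gene in 1 line (x axis, differentiated over undifferentiated; bars are SE), filled where the edgeR adjusted p was below 0.05. Pfkl runs from -0.68 in males to 1.10 in WT females, while Pfkp lies below 0 in all 3 lines.

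Differentiated RlimKO-labelled and WT female cells were compared next, since the design sets the RlimKO line against WT. All 9 tested members had lower levels in the RlimKO-labelled line, with log2 fold changes from -0.83 to -0.32 and a median of -0.47, against -0.004 over all tested genes. In the model of 12 libraries 1 member, Hk2, was called lower, as were 1.55% of all tested genes. Of the 9, 6 had an unadjusted p below 0.05, a looser cutoff whose share over all genes is not given here. Hk2 had 87.1 and 87.3 CPM in the RlimKO-labelled line and 155 and 156 CPM in WT females (-0.83 ± 0.16, adjusted p = 0.0123). It was not called when any of these 4 libraries was left out, with an adjusted p of 0.124 and 0.098 without WT replicates 1 and 2, and 0.127 and 0.181 without RlimKO-labelled replicates 1 and 2.

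The libraries of the other members did not overlap either, but the share of all tested genes without overlap was not computed, so this has no background. With 2 libraries a group an exact permutation test cannot go below 0.33. Tpi1 had 269 and 263 CPM in RlimKO-labelled cells and 394 and 399 CPM in WT females (-0.58 ± 0.16, adjusted p = 0.0655). Ldha had 315 and 422 CPM against 532 and 512 CPM (-0.50 ± 0.16, adjusted p = 0.115), and Aldoa had 522 and 556 CPM against 757 and 739 CPM (-0.47 ± 0.17, adjusted p = 0.178). A model of only these 4 libraries called all 9 tested members lower, where 9.96% of 11475 genes were lower. More members were called lower in the 12-library model without differentiated male replicate 1 or 2, but the share of all genes called there is not given here. Pluripotency markers were lower in the RlimKO-labelled line in 4 of 8 genes (85.1 to 97.8 against 205 to 213 CPM summed), and fibroblast markers summed higher (11449.6 to 11730.1 against 7211 to 8365 CPM). Summed markers of endoderm (121 to 142 against 238 to 239 CPM), cardiac muscle (76.5 to 77.8 against 141 to 159 CPM) and neural cells (136.5 to 142.6 against 298 to 317 CPM) were lower in the RlimKO-labelled libraries. Their part in the result was not tested.

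Before differentiation the same 2 lines gave 0 called members, among 0.242% of all tested genes called in either direction. By unadjusted p, 2 members were below 0.05, and DESeq2 called 0. The log2 fold changes ran from 0.04 to 0.46, with the largest for Ldha, which had 384 and 420.3 CPM in the RlimKO-labelled line and 277 and 308 CPM in WT females (0.46 ± 0.16, adjusted p = 0.321). Ldha alone was called without differentiated male replicate 1 or 2, where the share of all genes called is not given here. All 9 differences had the sign opposite to that after differentiation.

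**Figure D4:**
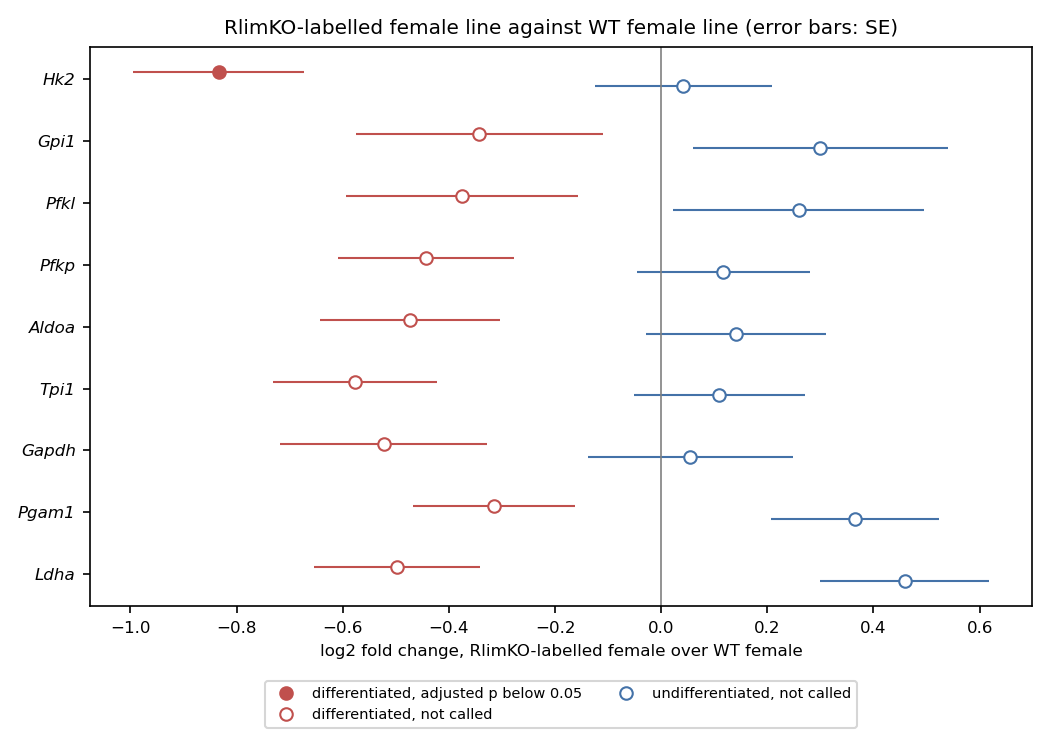
Points are log2 fold changes of RlimKO-labelled over WT female cells (x axis, bars are SE) for differentiated (red) and undifferentiated (blue) libraries, filled where the edgeR adjusted p was below 0.05. All 9 differentiated values lie between -0.83 and -0.32, and all 9 undifferentiated values between 0.04 and 0.46.

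The change on differentiation was accordingly lower in the RlimKO-labelled than in the WT female line for all 9 members, by -0.96 to -0.56. In the 12-library model 0 members were called, as were 0.203% of all genes in either direction. DESeq2 called 1 (Ldha), and 6 had an unadjusted p below 0.05. Ldha had the smallest p (-0.96 ± 0.22, adjusted p = 0.108). A model of the 8 female libraries called 8 members lower, where 3.03% of 11773 genes were lower. The 12-library model without differentiated male replicate 1 or 2 also called members lower, but the share of all genes called there is not given here. These differences share their libraries with the comparisons above.

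Undifferentiated WT female cells differed from undifferentiated males in 3 members, all lower in females, and 3.50% of all tested genes were lower and 3.12% higher. Gpi1 (chr7:34201330-34230336) had 117 and 153 CPM in females and 316 and 254 CPM in males (-1.08 ± 0.24, adjusted p = 0.0146). Pfkl had 71.9 and 85.3 CPM in females and 176 and 150.1 CPM in males (-1.05 ± 0.23, adjusted p = 0.0142). Ldha had 277 and 308 CPM in females and 468 CPM in both males (-0.68 ± 0.16, adjusted p = 0.0204). No member was called without undifferentiated WT female replicate 1 or 2 or male replicate 1, and only Gpi1 without male replicate 2. Without undifferentiated RlimKO-labelled replicate 1 or 2 or differentiated WT female replicate 2, 2 were called. More members were called without differentiated male replicate 1 or 2, but the share of all genes called in those fits is not given here.

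After differentiation 4 members were higher in WT females than in males (Hk2, Pfkl, Gapdh and Ldha) and 0 were lower, and 4.67% of all tested genes were higher and 4.29% lower. Hk2 had 155 and 156 CPM in females and 67.5 and 91.4 CPM in males (0.96 ± 0.16, adjusted p = 0.00226), called in all 12 fits without a library. It measured 0.79 and 1.21 without male replicates 1 and 2. Gapdh had 63.1 and 48.5 CPM in females and 31.2 and 32.5 CPM in males (0.81 ± 0.19, adjusted p = 0.0169), not called without differentiated WT female replicate 1 (0.216). Ldha had 532 and 512 CPM in females and 307 and 355 CPM in males (0.66 ± 0.16, adjusted p = 0.018), not called without WT female replicate 1 (0.137) or 2 (0.124).

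Pfkl, with 186 and 151 CPM in differentiated females and 123 and 82.5 CPM in males, stood at the threshold (0.72 ± 0.22, adjusted p = 0.0496). It was called in 2 of the 12 fits without a library, those that left out a differentiated male library. Fewer members were called without WT female replicate 1 or 2, and more, not all of them higher, without male replicate 1. The share of all genes called in those fits is not given here. A model of only these 4 libraries called 0 members. Summed pluripotency markers were 205 to 213 CPM in females and 48.9 to 126 CPM in males, and 4 of 8 were called higher in females, and their part in the result was not tested.

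RlimKO-labelled cells were compared with the same male libraries. Undifferentiated, Gapdh was higher (0.64 ± 0.19, adjusted p = 0.0467) and Gpi1 (-0.78 ± 0.23, adjusted p = 0.0483) and Pfkl (-0.79 ± 0.23, adjusted p = 0.0388) were lower, where 4.60% of genes were higher and 5.41% lower. Gapdh measured 97.5 and 75.4 CPM in the RlimKO-labelled line and 60.2 and 50.5 CPM in males. All 3 calls lay near the threshold: 0 members were called without any 1 of the 4 libraries compared or without differentiated WT female replicate 1 or either differentiated RlimKO-labelled replicate, and 1 (Gapdh) without undifferentiated WT female replicate 1 or 2 or differentiated WT female replicate 2. Differentiated, 0 members were called, where 11.6% of all genes were called in either direction. There 2 had an unadjusted p below 0.05, DESeq2 called 1 (Gpi1), and members were called both higher and lower without male replicate 1. The share of all genes is not given here for any of these.

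The change on differentiation itself was tested between lines. It was more positive in WT females than in males for Pfkl (1.77 ± 0.31, adjusted p = 0.0155), Ldha (1.34 ± 0.22, adjusted p = 0.0118) and Pgam1 (0.96 ± 0.22, adjusted p = 0.0445), where 0.882% of all genes were more positive. All 9 members had a positive difference, from 0.22 to 1.77, with a median of 0.70 against 0.099 over all tested genes. Pgam1 had 104 and 111 CPM in differentiated against 81.4 and 100.1 CPM in undifferentiated WT females. No member was called when any of the 4 WT female libraries or either undifferentiated male library was left out. Only Pfkl and Ldha were called without any 1 of the 4 RlimKO-labelled libraries, and more members without differentiated male replicate 1 or 2. The share of all genes called in those fits is not given here. Between the RlimKO-labelled line and males 0 members differed in their change, where 2.61% of all genes did in either direction. There 1 had an unadjusted p below 0.05, and DESeq2 called 0. Members were called without differentiated male replicate 1 or 2. The share of all genes is not given here for the unadjusted p or for those fits.

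Phosphofructokinase is built from the liver, muscle and platelet types (Pfkl, Pfkm and Pfkp), and their shares were compared per length as a description. The platelet type made up 23.9 ± 2.57% of the family in differentiated RlimKO-labelled cells and 50.8 ± 7.36% in undifferentiated ones (SD, n = 2 each). In WT females it was 25.1 ± 3.71% against 51.4 ± 1.97%, and in males 27.9 ± 0.807% against 42.1 ± 3.03%. Differentiated and undifferentiated libraries did not overlap in any line. The liver type took 59.6 ± 3.38% against 40.9 ± 7.96% in the RlimKO-labelled line and 59.9 ± 4.42% against 37.6 ± 0.418% in WT females. Males showed no such shift, with 46.5 ± 5.59% in differentiated and 47.6 ± 3.81% in undifferentiated cells, and the muscle type there took 25.6 ± 4.78% against 10.3 ± 0.785%.

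Lactate dehydrogenase is built from the subunits of Ldha and Ldhb, the second of which favours pyruvate formation. Ldha made up 94.7 ± 0.973% of the family per length in differentiated and 84.9 ± 1.21% in undifferentiated RlimKO-labelled cells. It was 94.4 ± 0.703% against 83.1 ± 2.0% in WT females and 92.5 ± 4.32% against 66.2 ± 2.80% in males. Ldhb fell in all 3 lines, with a log2 fold change of -1.84 ± 0.37 in the RlimKO-labelled line (adjusted p = 0.000952), -0.945 ± 0.34 in WT females (adjusted p = 0.0333, called in 7 of 12 fits without a library) and -3.04 ± 0.32 in males (adjusted p = 2.04e-06; -2.47 and -3.98 without differentiated male replicates 1 and 2). The Ldha share was thus higher after differentiation in males although the Ldha level was lower.

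**Figure D5:**
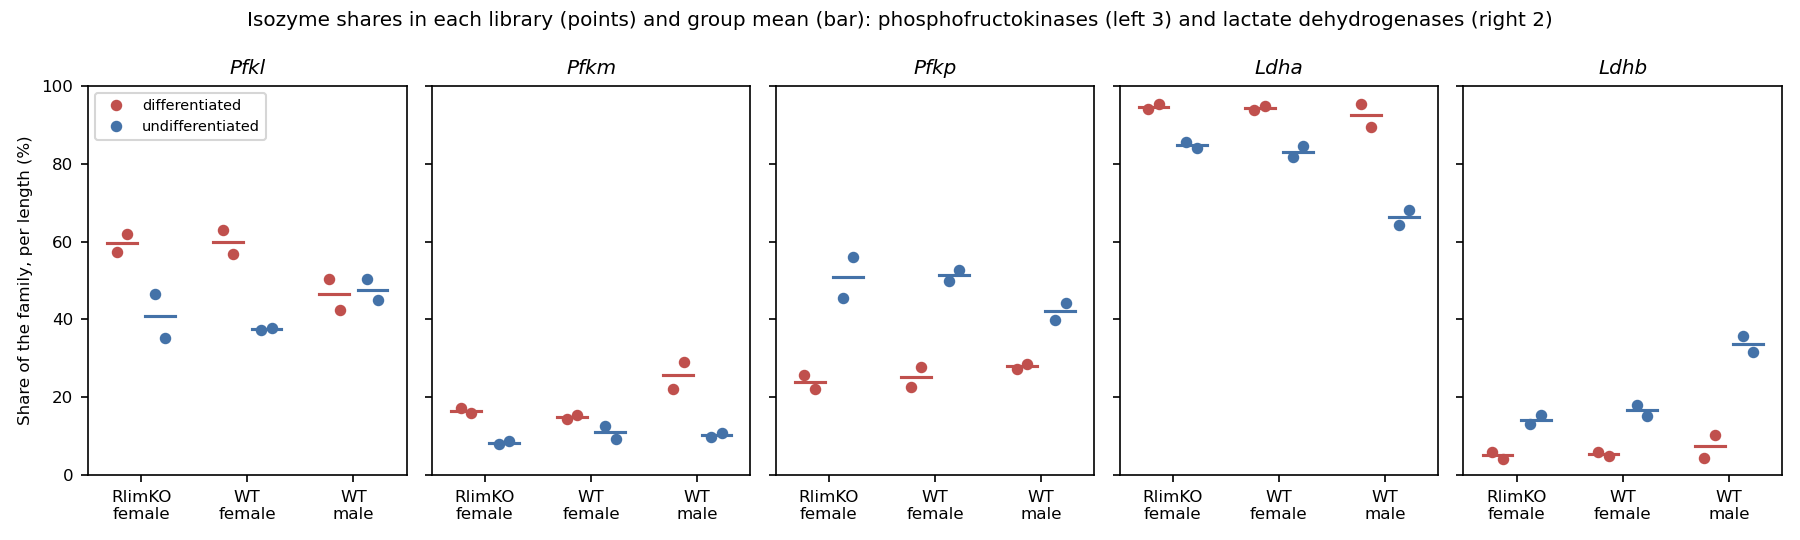
Points give the share of each gene in its enzyme family in each library (% of summed CPM per kilobase) and bars the mean of 2, with differentiated cells left of undifferentiated cells in 3 lines. The Pfkp share is below 30% in all differentiated and above 39% in all undifferentiated libraries, and the Ldha share is above 89% in all differentiated libraries.

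Among hexokinases Hk2 held the largest share in every library. It made up 76.8 ± 0.916% against 74.2 ± 0.903% in differentiated and undifferentiated RlimKO-labelled cells, 72.2 ± 3.97% against 81.0 ± 4.30% in WT females and 55.2 ± 1.56% against 62.9 ± 3.18% in males, with most of the rest from Hk1. Aldoa held 98.8% to 99.7% of aldolase in every library, and Pgam1 held 88.9% to 99.2% of phosphoglycerate mutase.

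Summed, the 10 genes took 0.31 ± 0.0246% of counts outside Rn45s and Lars2 in differentiated RlimKO-labelled cells, 0.456 ± 0.00814% in WT females and 0.348 ± 0.0407% in males. The undifferentiated shares were 0.44 ± 0.00827%, 0.38 ± 0.0209% and 0.513 ± 0.0371% in the same order of lines (SD, n = 2 each). The share was thus higher after differentiation in WT females and lower in the other 2 lines, and in no line did the pairs overlap. With all gene counts as the denominator the pairs overlapped in the RlimKO-labelled line (0.0715% and 0.206% against 0.185% and 0.231%) and in males (0.244% and 0.352% against 0.204% and 0.272%), so that for these 2 lines the difference depends on the denominator. Aldoa and Ldha carry most of these sums.

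Pgk1 and Pkm complete the pathway, as phosphoglycerate kinase and pyruvate kinase. In the transcript comparison 68.4% of Pgk1 windows and 64.6% of Pkm windows were found in another gene, so both levels are exposed to such sharing. Pgk1 is X-linked and was not called in any line in the model of 12 libraries, with log2 fold changes of -0.44 ± 0.21 in the RlimKO-labelled line, 0.33 ± 0.21 in WT females and -0.23 ± 0.21 in males. The differentiated males were far apart, at 209.8 and 392 CPM against 337 and 372 CPM, and the male fold was 0.21 without differentiated male replicate 1 and -0.70 without replicate 2, where it was called (adjusted p = 3.66e-05). Without male replicate 1 or 2 Pgk1 was also called lower on differentiation of RlimKO-labelled cells (adjusted p = 0.000392 and 0.000604) and higher in WT females (0.0103 and 0.0133). Pkm, listed as Pkm2, fell in the RlimKO-labelled line (755 and 768 CPM against 1255 and 1215 CPM, -0.70 ± 0.14, adjusted p = 0.000784) and in males (780.2 and 742 CPM against 1815 and 1752 CPM, -1.23 ± 0.14, adjusted p = 3.86e-06). In WT females it was not called (1035 and 1096 CPM against 1087 and 1216 CPM, -0.11 ± 0.14). Of 20 other glycolytic enzymes and isozymes 14 were tested. In the RlimKO-labelled line 3 rose and 5 fell, in WT females 6 rose and 3 fell (3 and 1 without undifferentiated replicate 2), and in males 4 rose (2 without undifferentiated replicate 1) and 3 fell. Over all tested genes the shares were 26.4% higher and 21.6% lower, 26.5% and 22.2%, and 28.7% and 25.4% in the same lines, so several of these counts are near the background. Their medians were -0.34, 0.36 and -0.21. Eno3, the muscle enolase, rose in all 3 lines (2.40 ± 0.37, 1.77 ± 0.34 and 1.10 ± 0.31).

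Glucose enters and lactate leaves through membrane transporters. Slc2a1, the main glucose transporter, had 666 ± 72.1 CPM in differentiated against 264 ± 2.47 CPM in undifferentiated RlimKO-labelled cells (SD, n = 2 each; log2 fold change 1.34 ± 0.15). In WT females it had 370.0 ± 15.8 against 165 ± 7.42 CPM (1.16 ± 0.15), and in males 908 ± 28.1 against 226 ± 32.3 CPM (2.01 ± 0.15). Slc16a3, a lactate exporter, and its chaperone Bsg also rose in each line. In males Slc16a3 rose by 0.89, or by 1.20 and 0.63 without differentiated replicates 1 and 2. Of 10 tested transport genes 5 rose in the RlimKO-labelled line, 5 in WT females and 7 in males, and 1 fell in each, where 26.4%, 26.5% and 28.7% of all genes were higher. The number that fell was 0 with a stricter filter, and in the female lines 2 with no filter. The number that rose was 3 in WT females without undifferentiated WT female replicate 2, and 3 in the RlimKO-labelled line with DESeq2, in the model of only the libraries compared, or without 1 of 5 libraries (undifferentiated WT female replicate 1 or 2, undifferentiated RlimKO-labelled replicate 2, undifferentiated male replicate 1 or differentiated RlimKO-labelled replicate 2). Medians were 0.86, 1.07 and 1.39.

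Pfkfb3, which makes the fructose bisphosphate that activates phosphofructokinase, rose in all 3 lines (2.01 ± 0.40 in the RlimKO-labelled line, 3.18 ± 0.42 in WT females and 3.13 ± 0.36 in males, there 3.72 and 2.34 without differentiated replicates 1 and 2). Tigar, listed as 9630033F20Rik, which removes that activator, fell in all 3 (-1.999 ± 0.31, -1.99 ± 0.30 and -1.36 ± 0.27), and these 6 calls held in all 12 fits without a library. Of 16 hypoxia response genes outside glycolysis, 6 rose in the RlimKO-labelled line (11 without differentiated male replicate 1 or 2), 10 in WT females (6 without undifferentiated WT female replicate 1 or 2) and 7 in males (11 without differentiated male replicate 1), where 26.4%, 26.5% and 28.7% of all tested genes rose. In the same list 0 fell in either female line (1 in WT females in several alternatives) and 3 in males, or 1 in males with DESeq2 and 0 without undifferentiated male replicate 2. P4ha1, a collagen prolyl hydroxylase, had 304 ± 14.0 against 25.8 ± 0.222 CPM in the RlimKO-labelled line, 308 ± 2.75 against 33.8 ± 5.46 CPM in WT females and 411 ± 146 against 55.6 ± 1.87 CPM in males. P4ha1 rose in all 12 fits without a library in each line.

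Taken over the 12 libraries, the 9 genes did not move as a block. The highest Pearson correlation of log2 CPM between 2 members was 0.795, between Aldoa and Pfkp, and the lowest was -0.578, between Tpi1 and Pfkp. The 5 other tested genes whose profile was most like the mean of the 9 were Ptp4a3 (r = 0.903), Cox6a1 (0.895), Kit (0.882), Frmd5 (0.88) and Slc25a17 (0.877), over 12 libraries that share their scaling. These correlations are given as a description.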

How the data were processed

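Per the labels, total RNA of 12 samples was made into libraries by template switching and tagmentation. The deposited values are raw counts per gene. Per the submitters' processing notes, bcl2fastq 2.16.0.10, TopHat2 2.0.12, HTSeq 0.6.1p1, edgeR 3.10.0 and the mm10 build were used by the authors; the gene annotation and the treatment of reads with several matches are not given in the sources used here. From these counts, 5 summary lines were removed, genes were filtered with filterByExpr, and 1 edgeR 4.0.16 quasi-likelihood model (R 4.3.3, TMM) with 6 group means was fitted to 12814 genes. P-values were adjusted by Benjamini-Hochberg over all of them, and an adjusted p below 0.05 is a call. Counts of members below an unadjusted p of 0.05 are given without the share of all genes below it, so they have no background. With 2 libraries a group an exact permutation test cannot go below 0.33. CPM was computed on TMM-scaled library sizes. Intervals and floors cover counting error only.

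The genes and lists were chosen with earlier results of these data known. Named genes outside the 10 are Pgk1, Pkm, up to 3 genes of each list with the smallest p in any line's differentiation comparison, and the 5 genes most like the mean profile (log2 CPM with a pseudocount of 0.5). Of 194 list genes, all were matched, 5 by an older symbol. Gene positions and lengths are from GENCODE M21 (GRCm38), promoters from RefSeq on GRCm38.p6. Alternatives were DESeq2 1.42.0, other size factors, filters, gene exclusions, a replicate block, a model of only the libraries compared, and 12 fits without a library. A lone library left in a group was assumed to vary like the other groups. For fits without a library and other alternatives, counts of genes called have no background unless a share of all genes is given beside them.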

Additional observations from a re-analysis of the deposited data

Results flagged for a closer look

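Differences between lines in the change on differentiation passed the interaction test for 3 of the 9 tested enzyme genes, in WT females minus WT males. Pfkl differed by 1.774 on the log2 scale (SE 0.31, edgeR adjusted p = 0.0155), with a log2 fold change of 1.10 in WT females and -0.68 in males. Ldha differed by 1.335 (SE 0.22, adjusted p = 0.0118), with 0.84 in WT females and -0.50 in males. Pgam1 differed by 0.956 (SE 0.22, adjusted p = 0.0445), with 0.24 in WT females, where it was not called, and -0.72 in males. Without differentiated male replicates 1 and 2, Pfkl measured 2.03 and 1.45, Ldha 1.19 and 1.39, and Pgam1 1.03 and 0.78. In fits without any 1 of the 4 WT female or the 2 undifferentiated male libraries, 0 of the 3 were called.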

How the results depend on the processing

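Over 20 alternatives, 41 values of the tested enzyme genes were followed, giving 678 results with the same direction and side of the threshold, 22 newly called, 117 no longer called and 3 with the sign turned. None of those 3 belonged to a called value: Gpi1 in WT females (-0.00047 without undifferentiated replicate 1, and up to 0.373 without other libraries) and Ldha in the RlimKO-labelled line (0.074 without its differentiated replicate 1, down to -0.347 without its replicate 2, and 0.075 without the 2 libraries of extreme Rn45s share, an alternative chosen after seeing the data). Of 67 uncalled values given by range, 15 changed sign somewhere. Of 30 called values, 10 were called in all 12 fits without a library. Counts of called members are given below in their comparison, and the cause of each move was not tested. Except where stated, the share of all genes called in each alternative is not given, so these counts have no background.

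With only the libraries compared, differentiation called 7 members for the RlimKO-labelled line and 3 for males. RlimKO-labelled against WT females gave 1 undifferentiated and 9 differentiated, the latter where 9.96% of genes were lower. WT females against males gave 5 undifferentiated and 0 differentiated. The change on differentiation gave 8 for RlimKO-labelled minus WT females, where 3.03% of genes were lower, and 1 for WT females minus males. Without the 2 libraries of extreme Rn45s share, RlimKO-labelled against WT females gave 1 undifferentiated and 3 differentiated, WT females against males 7 undifferentiated, RlimKO-labelled against males 1 differentiated, and the 3 differences in change 3, 6 and 3. In differentiated RlimKO-labelled against WT females, the count was 2 without Rn45s and Lars2, 4 with no filter, 2 with a stricter filter (5 CPM in 2 libraries) and 3 with DESeq2. RlimKO-labelled against males gave 1 undifferentiated with RLE size factors, without Rn45s and Lars2 and with the stricter filter. Differentiated, it gave 1 with those 3 and with DESeq2, and 2 with no filter. The change in RlimKO-labelled minus WT females gave 1 with no filter and 1 with DESeq2, and RlimKO-labelled minus males gave 1 with no filter.

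Leaving out single libraries, the count on differentiation ran from 3 to 7 in the RlimKO-labelled line, 4 to 6 in WT females and 3 to 8 in males. RlimKO-labelled against WT females ran from 0 to 1 undifferentiated and 0 to 8 differentiated, WT females against males from 0 to 6 and 1 to 7, and RlimKO-labelled against males from 0 to 3 in both states. Differences in change ran from 0 to 6 for RlimKO-labelled minus WT females, 0 to 6 for WT females minus males and 0 to 2 for RlimKO-labelled minus males. No share of all genes stands beside these ranges, so they have no background. Removing Rn45s and Lars2 moved the median of all genes by -0.11 in the RlimKO-labelled line.

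With all gene counts as denominator, the summed share of the 10 genes was 0.139%, 0.25% and 0.298% in differentiated RlimKO-labelled, WT female and male cells, and 0.208%, 0.185% and 0.238% in undifferentiated cells of the same lines, so that the male difference turned round, with overlapping libraries. Outside Rn45s and Lars2 and without Gapdh the share was 0.446% in differentiated WT females and 0.423% in undifferentiated RlimKO-labelled cells. Single libraries, with all 10 genes and outside Rn45s and Lars2, gave 0.293% to 0.327%, 0.451% to 0.462% and 0.319% to 0.376% in the differentiated lines and 0.435% to 0.446%, 0.365% to 0.394% and 0.486% to 0.539% in the undifferentiated ones. Libraries of the same number did not deviate together (correlations -0.066 to 0.103), so they share only a number, and the replicate block gave 5 members in differentiated WT females against males, against 4 without it, and changed no call among the 41 values.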

Other observations

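Genes of pathways that branch from glycolysis were counted on differentiation against 26.4%, 26.5% and 28.7% of all tested genes called higher, and 21.6%, 22.2% and 25.4% called lower, in the RlimKO-labelled, WT female and male lines. Of 8 tested genes of the pentose phosphate pathway 1 rose and 4 fell in the RlimKO-labelled line, 1 rose and 4 fell in WT females, and 1 rose and 5 fell in males. G6pdx, which is X-linked and commits glucose to that pathway, fell by 1.87, 1.44 and 1.61 on the log2 scale in the 3 lines (edgeR adjusted p = 6e-06, 3.27e-05 and 8.77e-06). Taldo1, a transaldolase, fell by 1.79, 1.04 and 1.73.

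Of 9 tested glycogen genes 5 rose and 1 fell in the RlimKO-labelled line, 7 rose and 0 fell in WT females, and 4 rose and 1 fell in males, where 7 rose without differentiated replicate 2. Pygb, the brain-type glycogen phosphorylase, rose in each line, with log2 fold changes of 1.65, 2.09 and 2.20. Pygl, the liver type, was called higher in each line, but its undifferentiated WT female libraries held 1 and 0 counts, so no fold is given there. Its log2 fold changes were 2.52 for RlimKO-labelled cells and 1.80 for males (2.26 and 1.21 without differentiated male replicates 1 and 2). Of 16 citrate cycle genes 0 rose in any line, and 5 fell in the RlimKO-labelled line, 3 in WT females and 9 in males (4 without undifferentiated male replicate 2). Idh3g, a subunit of isocitrate dehydrogenase, fell by 1.98, 1.93 and 1.14. Pdha1, a subunit of pyruvate dehydrogenase, fell by 1.15, 1.40 and 0.80, and by 0.35 and 1.35 in males without differentiated replicates 1 and 2. Both genes are X-linked. In undifferentiated RlimKO-labelled, WT female and male cells Idh3g had mean levels of 129, 133 and 56.45 CPM, and Pdha1 had 133, 155 and 102 CPM. The part of X linkage in the differences between lines was not tested.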
